A study of Sus scrofa with 70 samples.

Results

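The cystatins are described here across 5 reproductive glands of the boar. The set was chosen by gene name, as every gene of the deposited annotation whose name starts with CST followed by a digit, together with CSTA and CSTB. It holds 7 of the 35552 genes of the RNA-seq table, namely CST3, CST6, CST7, CST8, CST9L, CST11 and CSTB. CST8 carries an Ensembl identifier alone in the deposited annotation and was added because its transcript uses both introns of the RefSeq gene CST8 at the same position. No gene is named CSTA in the files used here.

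Gene expression was measured by RNA-seq in 30 libraries, with 3 libraries of each gland and breed, and by full-length Iso-seq in 10 libraries, with 1 library of each gland and breed. The glands are the testis, the epididymis, the vesicular gland, the prostate gland and the bulbourethral gland. The breeds are BMI, the Banna mini-pig inbred line, and DSE, the Diannan small-ear pig, and all boars were 12 months old and received no treatment named in the labels. The labels do not say which libraries share a boar or which region of the epididymis was taken, so p-values measure the spread between libraries.

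Cystatins are proteins that bind the active site of papain-like cysteine proteases, among them the lysosomal cathepsins, and block them reversibly. Stefins such as CSTB lack a signal peptide and work inside the cell, whereas CST3, CST6 and CST7 carry one and enter the secretory pathway. A further branch, to which CST8, CST9L and CST11 belong, is known mainly from the male reproductive tract, where several members lack residues that the inhibitors use. In semen and along the epididymis, cystatins are among the protease inhibitors that bathe the maturing sperm.

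Expression is given as TPM, a share of all transcripts of a library that is corrected for transcript length, summed over the transcripts of a gene, so levels can be compared between genes. The 10 most abundant transcripts took 9.24% to 64.7% of a library's TPM. The marker lists were chosen with earlier results of these data known, so they describe the libraries and are no independent check of the labels. In testis 8 of 8 germ cell genes and 5 of 5 Leydig cell genes were higher than in the other glands. In epididymis 6 of 6 measured genes of its epithelium were higher. Of all genes, 34.6% were higher in testis, 15.1% in epididymis, 2.95% in vesicular, 3.69% in prostate and 8.45% in bulbourethral gland. The shares lower were 12.7%, 6.56%, 30.1%, 12.8% and 12% in that order. Of 5 Sertoli cell genes tested, 4 were higher and 1 lower in testis. Testis was lower in 5 of 5 genes of glandular epithelium, of which bulbourethral gland was higher in 5, prostate gland in 4, epididymis in 4 and vesicular gland in 2. Of 5 smooth muscle genes, 5 were higher in epididymis, 4 in vesicular gland and 1 in prostate gland, and 5 were lower in testis and 5 in bulbourethral gland. Of 9 leukocyte genes, 4 were higher in bulbourethral gland, 2 in epididymis and 1 each in vesicular and prostate gland. Among these 9, 4 were lower in testis, 4 in vesicular gland and 1 in prostate gland. Of 3 skeletal muscle genes 1 was higher in epididymis and 1 in bulbourethral gland, and of 3 endothelial genes none was higher in any gland. One testis library stood apart. In DSE testis replicate 2 the summed TPM of the germ cell genes was 25576 against 76447 to 116911 in the other 5 testis libraries, whereas the Sertoli cell genes summed to 669 against 237 to 408 and the Leydig cell genes to 63471 against 18555 to 32309. The epididymis libraries also differed among themselves, with a sum of the epididymal markers from 396 in DSE replicate 1 to 33976 in BMI replicate 2. In whole tissue, fewer cells of a type and less RNA per cell cannot be told apart.

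Of the 7 genes, 5 lie on chromosome 17 of the genome build susScr11. CST11 (ENSSSCG00000007122) occupies chr17:30414048-30417127, CST9L (ENSSSCG00000029289) chr17:30451597-30454777 and CST3 (ENSSSCG00000037360) chr17:30470855-30474590, all on the minus strand, and CST8 (ENSSSCG00000007124) occupies chr17:30430511-30436548 on the plus strand. These 4 genes stand within 71.8 kb together with CSTL1, a gene that RefSeq calls probable cystatin-15, a gene it calls cystatin-13-like and the unnamed novelGene_1785. CST7 (ENSSSCG00000007131) lies further along at chr17:30758000-30766472 on the plus strand. CST6 (ENSSSCG00000012960) is at chr2:6323740-6325415 and CSTB (ENSSSCG00000027357) at chr13:206706063-206710646, both on the minus strand. Each is spliced from 3 coding exons in RefSeq, except CST7 with 4, and the coding sequences are short, from 297 bases in CSTB to 825 in CST8. Aligned coding sequences were 54.2% to 60.3% identical, the latter between CST11 and CST9L. CST7 and CSTB were 59.4% identical, and the neighbours CST3 and CST9L 54.8%. No baseline of unrelated sequences was computed, so kinship is not read from these values. No stretch of 31 bases was shared between transcripts of different cystatin genes. An antisense gene overlaps CST6, with at most 0.536 TPM, and another overlaps CSTB, with at most 1.74 TPM. The sources used here do not say whether counting used the strand, so reads of such partners may be mixed.

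**Figure D1:**
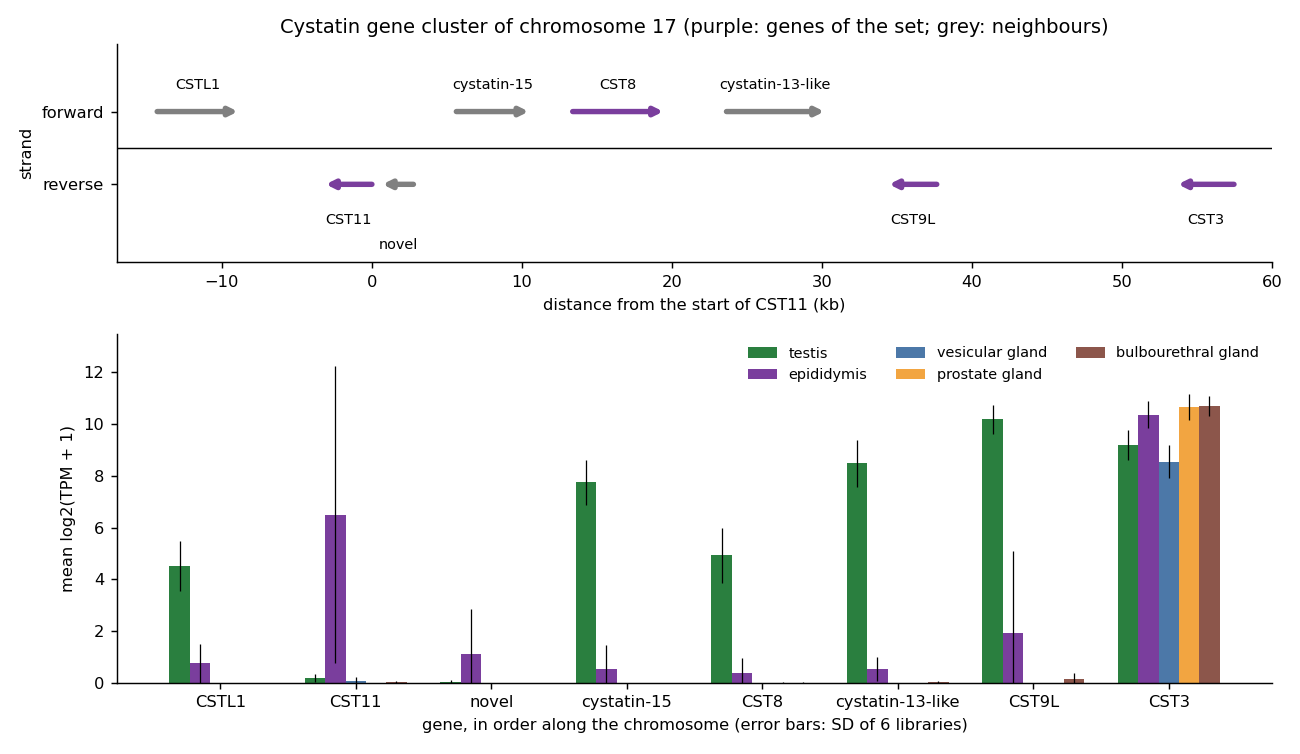
The upper panel maps the cystatin genes of chromosome 17 by strand and distance in kb from the start of CST11, and the lower panel gives the mean log2(TPM + 1) of each in 5 glands, with the SD of 6 libraries as error bars. CST8, CST9L and 3 neighbours were highest in testis, CST11 in epididymis, and CST3 was high in all glands.

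The 250 bases before the annotated start of 4 genes are shown because these genes carry the contrasts that follow: CST9L and CST8 were high in testis, CST11 in epididymis, and CSTB had at least 65.4 TPM in every library. They are written 5′ to 3′ on the strand of the gene, from the reference genome susScr11, at chr17:30454778-30455027, chr17:30430261-30430510, chr17:30417128-30417377 and chr13:206710647-206710896 in that order, with each CG dinucleotide in capitals.
CST9L: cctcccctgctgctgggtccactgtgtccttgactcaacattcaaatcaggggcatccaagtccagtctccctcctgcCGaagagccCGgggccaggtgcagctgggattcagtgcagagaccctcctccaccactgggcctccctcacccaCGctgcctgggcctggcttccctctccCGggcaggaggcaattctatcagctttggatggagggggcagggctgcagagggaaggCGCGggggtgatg
CST8: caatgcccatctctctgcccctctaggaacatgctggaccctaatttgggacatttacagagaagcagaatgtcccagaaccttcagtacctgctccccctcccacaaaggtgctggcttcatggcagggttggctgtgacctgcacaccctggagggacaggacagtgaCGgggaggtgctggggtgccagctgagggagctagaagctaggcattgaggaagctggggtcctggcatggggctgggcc
CST11: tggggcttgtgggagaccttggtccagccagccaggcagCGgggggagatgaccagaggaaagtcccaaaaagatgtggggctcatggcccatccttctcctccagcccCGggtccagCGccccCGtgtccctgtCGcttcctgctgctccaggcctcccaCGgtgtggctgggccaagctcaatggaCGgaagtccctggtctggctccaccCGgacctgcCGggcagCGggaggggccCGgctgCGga
CSTB: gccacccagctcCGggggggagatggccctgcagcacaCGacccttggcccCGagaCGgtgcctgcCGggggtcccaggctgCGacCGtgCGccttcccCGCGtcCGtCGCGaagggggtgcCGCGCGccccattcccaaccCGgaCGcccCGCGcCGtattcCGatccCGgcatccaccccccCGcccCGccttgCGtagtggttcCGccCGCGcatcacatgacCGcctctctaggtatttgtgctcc
The CG dinucleotides numbered 30 in CSTB, 26 in CST6, 19 in CST3, 12 in CST11, 7 in CST7, 6 in CST9L and 1 in CST8. The median of 35224 such windows of all annotated genes was 6, with quartiles of 2 and 16. The 3 genes with the most, CSTB, CST6 and CST3, were also the 3 most abundant in the accessory glands. This did not hold in testis, where CST9L, with 6, was the most abundant and CST6, with 26, was nearly absent. By mean TPM it did not hold in epididymis either, where CST11, with 12, was highest. A link between CG number and level was not tested. The GC box GGGCGG, searched on both strands, occurred 4 times in CST6, 2 times in CST3, 2 times in CSTB and once in CST7, and in 30.4% of all windows. CCAAT and AGAACA were found in CST7 alone, and TATAAA and TGACGT in none of the 7 windows. These motifs occurred in 32.5%, 14.1%, 14.7% and 5.61% of all windows.

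**Figure D2:**
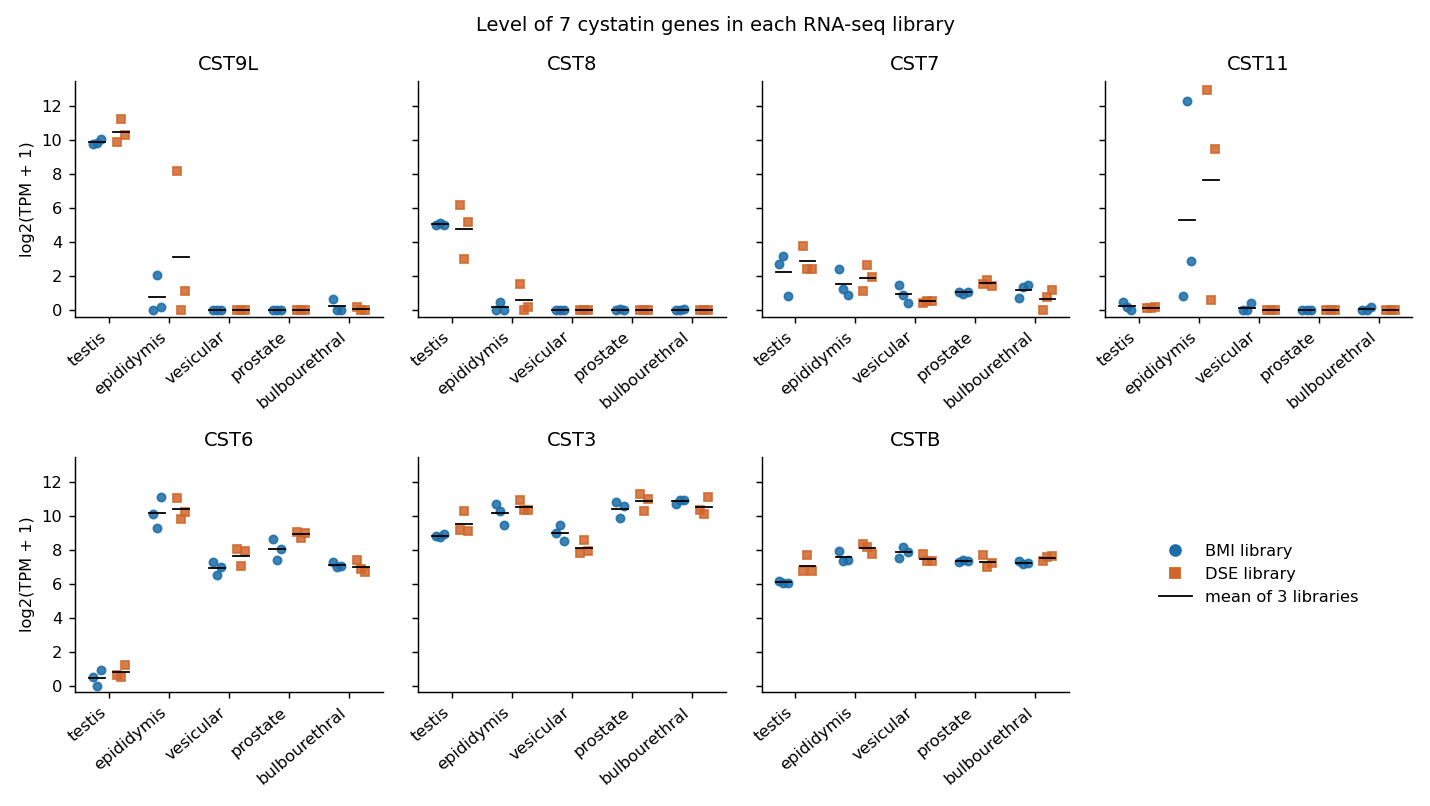
Each panel plots log2(TPM + 1) of a cystatin gene in 30 RNA-seq libraries by gland, with BMI as circles, DSE as squares and the mean of 3 libraries as a line. CST9L and CST8 separated testis from the other glands, CST6 was near 0 in testis alone, and CST11 ranged from 0.482 to 8045 TPM within the epididymis.

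Differences between glands were fitted with limma on log2(TPM + 1) over 19796 genes, each gland against the mean of the other 4. A gene counted as called where its log2 difference was at least 1 in size and its p, adjusted by the method of Benjamini and Hochberg, was below 0.05. Folds are therefore on the TPM + 1 scale, and for genes at 0 in a group their size depends on the added 1. The median of all genes was not at 0 in these contrasts, but at 0.31 for testis, 0.25 for epididymis, -0.69 for vesicular, -0.28 for prostate and -0.05 for bulbourethral gland. After rescaling each library by a size factor, taken as a median ratio over genes, these medians were 0.11, -0.13, -0.20, -0.19 and -0.20.

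CST3, or cystatin C, the most widely secreted cystatin, had at least 225 TPM in every library. CSTB had at least 65.4, and no other cystatin of the set reached 1 TPM in all 30 libraries. CST3 was lowest in the vesicular gland, with 225, 373 and 714 TPM as the lowest, median and highest of 6 libraries. The same values were 442, 519 and 1273 for testis and 713, 1308 and 2010 for epididymis. They were 943, 1682 and 2474 for prostate gland and 1123, 1822 and 2227 for bulbourethral gland. The libraries of vesicular gland thus lay below all those of prostate and bulbourethral gland, while the ranges of these 2 glands and the epididymis overlapped. CST3 was lower in vesicular gland by -1.67 ± 0.21 (log2, SE; adjusted p = 1.82e-07) and higher in bulbourethral gland by 1.01 ± 0.21 (adjusted p = 2.21e-04). The difference in prostate gland, 0.95 ± 0.21, and that in testis, -0.88 ± 0.21, had adjusted p of 5.11e-04 and 4.93e-04 and missed the fold threshold. With size factors the difference in vesicular gland was -0.81 and that in bulbourethral gland 0.79, so neither passed the fold threshold, whereas those in testis, -1.15, and in prostate gland, 1.09, did. The call in bulbourethral gland was also lost in 9 of the 30 fits that left out a library, which gave 0.87 to 1.11. Measured from the median of all genes, CST3 in vesicular gland stood at -0.98 with TPM as deposited and at -0.62 with size factors. Without DSE testis replicate 2, where CST3 reached 1273 TPM against 442 to 579 in the other testis libraries, the difference in testis was -1.07 (adjusted p = 7.07e-05) and was called.

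CST6, or cystatin E/M, which inhibits legumain as well as cathepsins, was nearly absent from testis and present in every other gland. In epididymis it had 1103, 631 and 2251 TPM in the BMI libraries and 2149, 921 and 1225 in the DSE libraries. In testis no library exceeded 1.28 TPM and BMI replicate 2 was listed at 0. Every epididymis library lay above every library of the other glands, of which the highest was 535 in prostate gland. Its median was 415 TPM in prostate gland, 144 in vesicular gland and 129 in bulbourethral gland, so the order was epididymis, prostate, vesicular, bulbourethral gland and testis. CST6 was higher in epididymis by 4.42 ± 0.22 (adjusted p = 8.76e-14), a 21.4-fold difference, and in prostate gland by 2.17 ± 0.22 (adjusted p = 3.00e-08). It was lower in testis by -7.66 ± 0.22 (adjusted p = 3.90e-20). Neighbours in the order all differed except vesicular and bulbourethral gland, with a difference of 0.26 ± 0.28 (adjusted p = 0.50). With size factors the call between vesicular and prostate gland was lost, at -0.60, and one between vesicular and bulbourethral gland was gained, at 1.13. Under the same scaling CST6 was also called higher in vesicular gland against the other glands, at 1.52.

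CST7, or cystatin F, which is known from immune cells and acts on cathepsin C, was the lowest of the 7 genes by its highest value. It reached 5.61, 7.97 and 0.774 TPM in BMI testis and 12.8, 4.29 and 4.37 in DSE testis. BMI testis replicate 3 thus lay within the range of the other glands, where the highest value was 5.28 in epididymis. The gene was higher in testis by 1.40 ± 0.28 (adjusted p = 9.40e-05). Testis was called higher than each of the 3 accessory glands. Its difference from epididymis, 0.85 ± 0.36 (adjusted p = 0.035), lay under the fold threshold. It was called at 1.21 without BMI testis replicate 3, at 1.08 without BMI epididymis replicate 1 and at 1.04 without DSE epididymis replicate 2. Of 9 leukocyte markers tested, 4 were lower in testis, against 12.7% of all genes, and 0 higher, against 34.6%.

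CST9L, which RefSeq annotates as cystatin-9 and which belongs to the testatin-like cystatins, was the most abundant cystatin of the testis. It had 868, 914 and 1067 TPM in BMI testis and 943, 2407 and 1250 in DSE testis. It was listed at 0 in all libraries of vesicular and prostate gland and reached 0.556 TPM in bulbourethral gland. All 6 testis libraries lay above every other library, of which the highest was DSE epididymis replicate 1 at 286. CST9L was higher in testis by 9.66 ± 0.62 (adjusted p = 3.68e-13), and by 12.45 with 0.1 added in place of 1. In the contrasts of the 3 accessory glands, whose comparison group holds the testis, it was lower by -3.06, -3.06 and -2.89.

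CST8, the cystatin-related epididymal spermatogenic protein, showed the same gland at a level far below CST9L. It had 30.8, 34.1 and 31.3 TPM in BMI testis and 73.3, 7.03 and 34.9 in DSE testis. The highest value elsewhere was 1.83 TPM, in DSE epididymis replicate 1, and 19 of the 24 libraries of other glands were listed at 0. The groups did not overlap. CST8 passed the filter on low values through the testis, the gland where it is high. Its difference there, 4.83 ± 0.25, and the lack of overlap are therefore given as a description. Full-length reads of CST8 began 185 bases after the annotated start, so the window of 250 bases printed above lies further from the measured start than that of the other genes.

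The 3 other cystatin genes of the cluster, which the name rule does not include, were high in testis as well. CSTL1 was higher there by 4.33 ± 0.25 (adjusted p = 6.34e-14). The probable cystatin-15 gene and the cystatin-13-like gene passed the filter on low values through the testis, so their levels are given as a description. In testis the 3 genes averaged 25.8 ± 15.3, 255 ± 187 and 410 ± 211 TPM (SD, n = 6), with at most 2.85, 4.38 and 1.38 TPM in any other library, and each was listed at 0 in every vesicular and prostate gland library. By these levels 5 genes of the cluster were highest in testis, beside CST11, highest in epididymis, and CST3, present in all glands.

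CST11, an epididymal cystatin with reported antibacterial activity, was the cystatin with the highest single value and the widest spread. In epididymis it had 0.736, 5074 and 6.33 TPM in BMI replicates 1 to 3 and 8045, 0.482 and 719 in DSE replicates 1 to 3. Outside the epididymis it never exceeded 0.408 TPM, and 17 of 24 libraries were listed at 0. Each breed thus had both a very high and a nearly empty library, and the highest epididymis library was 16707 times the lowest. CST11 passed the filter on low values through epididymis libraries alone, so its difference there, 6.43 ± 1.18 (log2, SE), is given as a description. That SE comes from 1 spread shared by all glands. The SD of log2(TPM + 1) was 5.75 in epididymis and at most 0.167 elsewhere, so the SE understates the spread between epididymis libraries. The size of the difference rests on single libraries. It was 4.69 without BMI epididymis replicate 2, 5.11 without DSE replicate 1 and 5.98 without DSE replicate 3. It was 7.05 without BMI replicate 3, 7.57 without BMI replicate 1 and 8.21 without DSE replicate 2.

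CSTB, or stefin B, an inhibitor of cathepsins in the cytosol and nucleus of most cells, varied least. Its lowest, median and highest values were 65.4, 89.6 and 210 TPM in testis, 164, 231 and 323 in epididymis and 159, 201 and 285 in vesicular gland. In prostate gland they were 126, 159 and 210, and in bulbourethral gland 144, 161 and 196. Over all 30 libraries the highest was 4.94 times the lowest. No contrast of a gland with the other 4 was called, although CSTB in testis, at -0.96 ± 0.14, had an adjusted p of 9.62e-07 and lay just under the fold threshold. It was called lower there with size factors, at -1.23, and without DSE testis replicate 2, at -1.12 (adjusted p = 2.72e-08). In the pairs, testis was called lower than epididymis, by -1.24 ± 0.17 (adjusted p = 8.71e-07), and than vesicular gland, by -1.07 ± 0.17 (adjusted p = 5.81e-06). The latter missed the fold threshold narrowly, at -0.99 in the smallest case, without DSE testis replicate 1 or 3, BMI vesicular gland replicate 2 or DSE vesicular gland replicate 1. In vesicular gland CSTB stood 1.08 above the median of all genes, and 1.44 above it with size factors, where it was called at 1.24.

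Set against all genes, the cystatins were called about as often as the background in some glands. In testis 3 of 7 were higher (CST7, CST8 and CST9L) and 34.6% of all genes were, while 1 of 7 was lower (CST6) against 12.7%. In epididymis 2 of 7 were higher (CST6 and CST11) against 15.1% of all genes, and none was lower against 6.56%. In vesicular gland none was higher against 2.95%, and 3 were lower (CST3, CST8 and CST9L) against 30.1%. In prostate gland 1 was higher (CST6) against 3.69% and 2 were lower (CST8 and CST9L) against 12.8%, and in bulbourethral gland 1 was higher (CST3) against 8.45% and 2 were lower (CST8 and CST9L) against 12%. CST8 passed the filter on low values through the testis and CST11 through the epididymis. Nothing is therefore read from their calls in these counts or in those of the pairs below. With so few members these shares describe the set and are not a test of it. The median over the 7 genes was 0.59 for epididymis, -0.17 for prostate, -0.65 for bulbourethral, -0.88 for testis and -1.32 for vesicular gland. The order depends on the scaling, since with size factors the median was -1.15 in testis, -0.81 in vesicular gland and 0.09 in epididymis.

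Between pairs of glands, testis and epididymis differed in 6 of 7 cystatins, all but CST7, where 51% of all genes were called. With size factors the call of CST3 in this pair was lost, at -0.99, which left 5. Testis differed in 5 genes each from vesicular gland (background 52.9%), prostate gland (48.9%) and bulbourethral gland (49.1%), and with size factors CSTB was added between testis and prostate gland, at -1.06, which made 6. Epididymis differed in 4 genes from vesicular gland (36.5%), of which CST3, at 0.72, and CST9L, at 1.84 (adjusted p = 0.078), were lost with size factors, and in CST6 and CST11 alone from prostate gland (21.3%) and from bulbourethral gland (21.3%). Among the accessory glands, vesicular and prostate gland differed in CST3 and CST6 (14.8%), vesicular and bulbourethral gland in CST3 (27.7%), and prostate and bulbourethral gland in CST6 (7.63%). With size factors CST6 was lost between vesicular and prostate gland, which left 1 gene, and CST6, at 1.13, and CSTB, at 1.16, were added between vesicular and bulbourethral gland, which made 3. CST3 was not called for prostate minus bulbourethral gland, with a difference of -0.05 ± 0.26. The call of CST9L between epididymis and vesicular gland, 1.92 ± 0.78 (adjusted p = 0.036), was lost without BMI epididymis replicate 2, at 1.59 (adjusted p = 0.0996), and without DSE replicate 1, at 0.65. Without any 1 of the 6 vesicular gland libraries it stayed at 1.92 with an adjusted p of 0.0526 to 0.0568. Its difference between testis and epididymis, 8.26 ± 0.78 (adjusted p = 1.09e-09), was 9.53 without DSE epididymis replicate 1 and 7.48 without DSE replicate 2.

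In the testis library that stood apart, the cystatin genes did not move one way. DSE testis replicate 2 had 0.206 times the median of the other 5 testis libraries for CST8, 0.24 times for CSTL1 and 0.295 times for the cystatin-13-like gene. It had 4.01 times that median for the probable cystatin-15 gene, 2.90 times for CSTB, 2.64 times for CST3 and 2.55 times for CST9L. All of these lay outside the range of the other 5 libraries, whereas CST7, at 0.764 times, lay within it. The germ cell genes summed to 0.32 times the median of the others in this library, the Sertoli cell genes to 2.66 times and the Leydig cell genes to 2.92 times. The genes that encode the proteases cystatins bind, summed, were at 3.05 times. CST8, CSTL1 and the cystatin-13-like gene thus shifted in the direction of the germ cell genes, and CST9L, probable cystatin-15, CST3 and CSTB in that of the Sertoli and Leydig cell genes. Of the other marker lists, epididymal epithelium, smooth muscle, leukocytes and endothelium summed to 2.17, 1.9, 1.72 and 1.6 times the median of the others. Skeletal muscle and glandular epithelium summed to 0.462 and 0.397 times. The part of the cell makeup in these values was not tested.

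**Figure D3:**
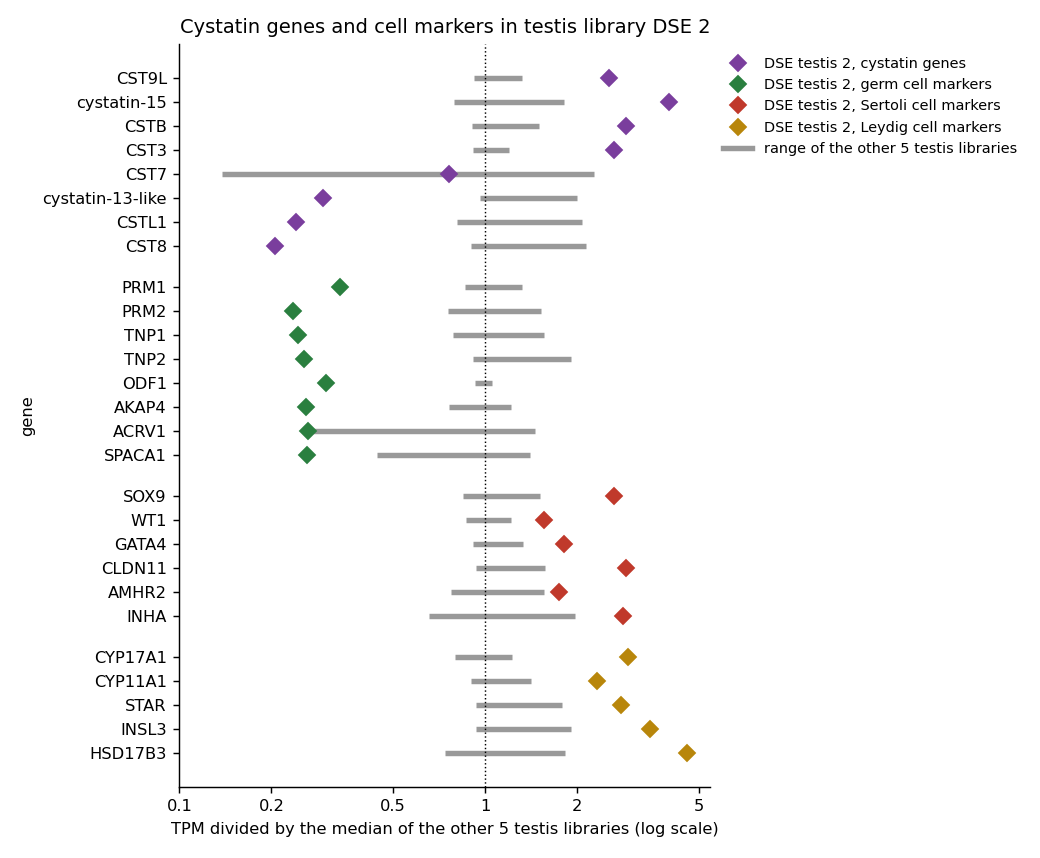
TPM of 8 cystatin genes and of germ, Sertoli and Leydig cell markers in testis library DSE 2 is divided by the median of the other 5 testis libraries on a log axis, with diamonds for the library and grey bars for the range of the others. CST8 lies at 0.206, below the 8 germ cell markers at 0.236 to 0.335, and CST9L lies at 2.55, CST3 at 2.64 and CSTB at 2.90.

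The epididymis libraries with high CST11 were not those with one common set of markers. CRISP1, a secreted protein that binds to sperm, had 1141, 2759 and 1891 TPM in BMI and 21.3, 1100 and 2659 in DSE, so it was lowest in DSE replicate 1, the library with the most CST11. The lipocalins LCN6 and LCN8 and the secreted RNASE10, markers of the upper part of the duct, reached 6126, 9677 and 10294 TPM in BMI replicate 2, the library with the next most CST11. DSE replicate 1 had 290 TPM of LCN6 but 5.78 of LCN8 and 20.1 of RNASE10. DEFB129, a beta-defensin, had 3817 TPM in BMI replicate 2, 5193 in DSE replicate 3 and 0.812 in DSE replicate 1. In these 3 libraries CST11 had at least 719 TPM, and in the other 3 at most 6.33. The other 4 listed markers of this epithelium were not matched by symbol.

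CST6, CST3 and CSTB varied far less than CST11 across these libraries. DSE replicate 1, with the most CST11, also had the most CST3, at 2010 TPM, and CSTB, at 323, and 2149 of CST6. BMI replicate 2, with the next most CST11, had the least CST6 and CSTB, and CST6 was highest in BMI replicate 3, where CST11 was 6.33 TPM. CST3 spanned 2.82-fold over the 6 libraries and CSTB 1.97-fold. Smooth muscle markers summed to between 2291 TPM in BMI replicate 2 and 20837 in DSE replicate 2, the latter with the least CST11. The region sampled is not in the labels, and its part in these values was not tested.

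**Figure D4:**
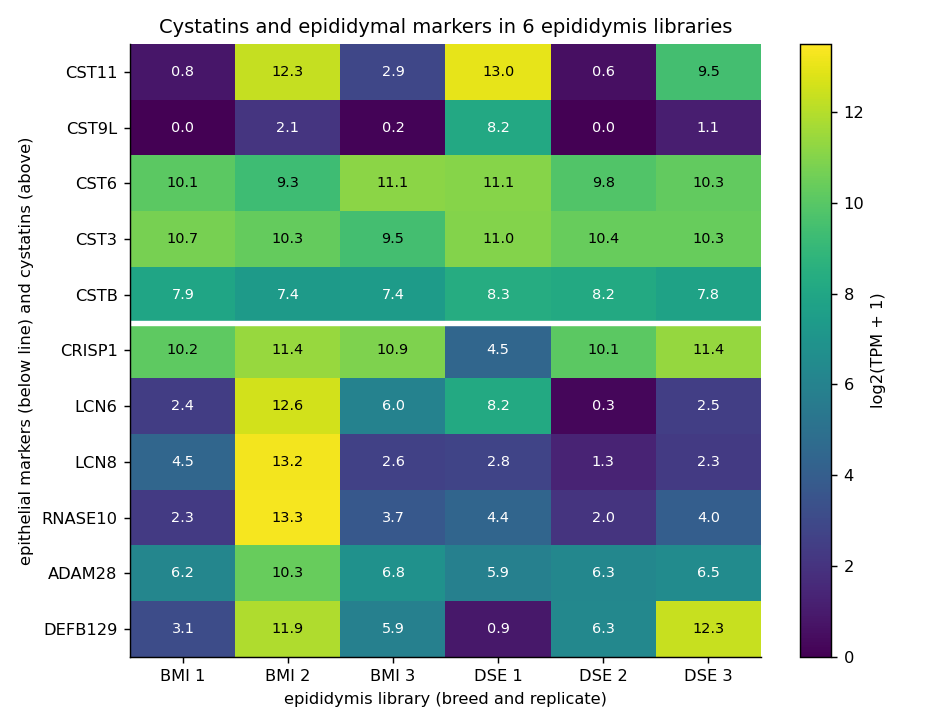
The heat map gives log2(TPM + 1) of 5 cystatins above the line and of 6 markers of the epididymal epithelium below it in the 6 epididymis libraries. CST11 ranges from 0.482 to 8045 TPM and CST9L from 0 to 286, while CSTB stays between 164 and 323, CST3 between 713 and 2010 and CST6 between 631 and 2251.

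CST9L in the epididymis came almost wholly from 1 library. DSE epididymis replicate 1 had 286 TPM, or 23% of the testis mean, and the other 5 had at most 3.17. In the study's quality summary this library has the lowest median transcript integrity and the largest unmapped share of the RNA-seq libraries, and the part of that in its values was not tested. The germ cell genes of that library summed to 254 TPM, 0.322% of their testis mean, and were higher in BMI replicate 2, at 1040 TPM, where CST9L was 3.17. CST8, at 1.83 TPM, had 5.19% of its testis mean in DSE epididymis replicate 1, and the probable cystatin-15 gene had 4.38 TPM. The Leydig cell genes summed to 0.265 TPM there, and the Sertoli cell genes to 14.5% of their testis mean, within the 9.16% to 18.8% of the other 5 epididymis libraries. CTSV, a cathepsin, had 2034 TPM in that library against 171 to 265 in the other 5, and CTSB 1620 against 194 to 536. The unnamed gene next to CST11, novelGene_1785, had 21.8 TPM in the same library and at most 1.27 in any other.

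At the level of transcripts, 16 transcripts of the 7 genes were tested together with all others. In testis 5 were higher, those of CST7 and CST8 and all 3 of CST9L, and 28.4% of the 64661 transcripts tested were higher there. In epididymis 7 were higher, all 6 of CST11 and that of CST6, against 9.63%. The transcripts of CST11 reached 1 TPM in epididymis libraries alone, and those of CST8 and 2 of CST9L almost wholly in testis, so they entered the test through the gland where they are high, and transcripts of 1 gene are not independent. Nothing is read from these counts. CST3, CST6, CST7 and CST8 had a single transcript each, and the Ensembl transcript of CSTB made up at least 98.7% of its gene. CST11 was mostly its Ensembl transcript, with 78.2% to 82.7% of the gene in the 3 libraries above 10 TPM. The isoform PB.8813.4 followed with 10.5% to 15.9%. The isoform PB.8813.6, the one that uses both introns of the RefSeq model of CST11, had 1.13% to 4.91%.

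PB.8813.4 ends the first exon of CST11 early and leaves out 78 bases, or 26 codons, that are coding in RefSeq. An isoform of CST9L, PB.8818.3, skips the second exon of 114 bases, or 38 codons. Both are multiples of 3 and keep the reading frame. The bases are shown in capitals between 12 flanking bases, on the strand of the gene, for chr17:30416683-30416760 in CST11 and chr17:30452730-30452843 in CST9L, and the stretch of CST11 starts with GTGAGT, the letters typical of the start of an intron.
CST11 bases absent from PB.8813.4: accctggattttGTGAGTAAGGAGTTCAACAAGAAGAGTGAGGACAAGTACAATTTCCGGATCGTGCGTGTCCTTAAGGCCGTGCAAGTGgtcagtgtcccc
CST9L bases absent from PB.8818.3: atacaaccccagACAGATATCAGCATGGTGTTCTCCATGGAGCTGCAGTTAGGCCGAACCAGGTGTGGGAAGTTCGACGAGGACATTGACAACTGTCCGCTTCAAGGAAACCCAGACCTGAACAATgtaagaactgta

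The CST9L isoform without the second exon was uneven between libraries. In DSE testis it had 123, 3.99 and 167 TPM, or 13.1%, 0.166% and 13.4% of the gene. In BMI testis it had 1.10, 0.954 and 0.445 TPM, or at most 0.127%. DSE epididymis replicate 1 had 14.2 TPM of it, 4.98% of the gene. The isoform was thus above 10% in 2 of 3 DSE testis libraries and below 1% in the 3 BMI libraries and in DSE replicate 2. In Iso-seq it had 2 reads in DSE testis and 0 in BMI testis. This isoform was picked after its values were seen, and its share was not tested between the breeds.

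Iso-seq counts full-length reads, given here per 100000 reads that a library has in the deposited isoform table, with exact Poisson 95% intervals, which cover counting error only. The table held 231413 to 458697 reads per library. These are 42.7% of all full-length reads of the library in DSE epididymis and 53.1% to 68.6% in the other 9, so DSE epididymis is raised most by this denominator. Without replicates these values compare libraries, not conditions. CST11 had 155 reads in DSE epididymis, 67.0 per 100000 (56.9 to 78.4), and 31 in BMI epididymis, 6.76 (4.59 to 9.59). Per 100000 of all full-length reads of the library, these were 28.6 (24.3 to 33.5) and 4.53 (3.08 to 6.43). No other library had a read of it. CST9L had 14 reads in BMI testis, 25 in DSE testis and 3 in DSE epididymis, and CST8 had 6 in BMI testis and 20 in DSE testis. The Iso-seq libraries therefore placed these 3 genes in the glands where RNA-seq found them, the few CST9L reads of DSE epididymis included. Of the 44 reads of CST6, 37 came from epididymis and 0 from testis.

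CST3 was read in all 10 libraries, with 175 reads. DSE epididymis had the most, 24.2 per 100000 (18.3 to 31.4), against 3.27 (1.83 to 5.39) in BMI epididymis, or 10.3 (7.81 to 13.4) against 2.19 (1.23 to 3.62) of all full-length reads. The mean of the RNA-seq libraries was 1542 TPM in DSE and 1221 TPM in BMI epididymis. CSTB had 21 reads over 9 libraries. CST7 had no read in any library, and with 3 reads taken as the limit that a count of 0 allows, this is up to 0.439 to 0.656 per 100000 of all full-length reads, by library. No fusion isoform joined a member to another gene.

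**Figure D5:**
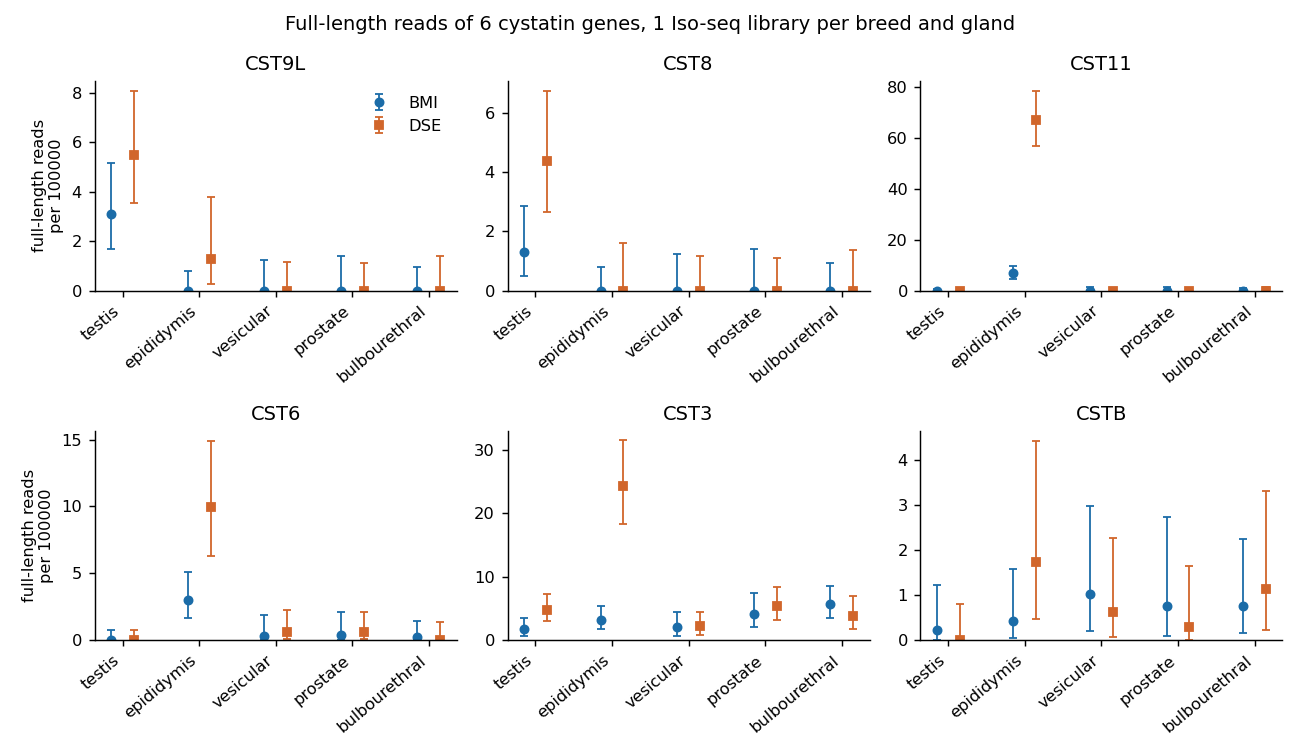
Full-length reads per 100000 in the isoform table of 6 cystatin genes are plotted by gland for 1 BMI library (circles) and 1 DSE library (squares), with exact Poisson 95% intervals as bars and a scale of its own for each gene. CST11 reached 67.0 in DSE epididymis and 6.76 in BMI epididymis, and CST9L and CST8 reads came from testis, with 3 reads of CST9L in DSE epididymis.

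Genes with the most similar profile were ranked by Pearson r of log2(TPM + 1) over the 30 libraries, which share glands and are not independent, so r is a description. For CST8 these were TEX52, C16orf78 and ACTRT1, all at 0.993. For CST9L they were CLEC12B at 0.989, PDILT, a chaperone of the testis, at 0.974 and P2RX6 at 0.974. CST11 was followed by TTC24 at 0.992, DEFB127, another beta-defensin, at 0.991 and PDZK1, a scaffold of membrane transporters, at 0.987. CST6 was followed by SIGIRR at 0.973, FLYWCH1 at 0.945 and CLDN7, an epithelial tight junction protein, at 0.944. The genes most like CST3 were MID1 at 0.941, PTGR3 at 0.934 and INTS15 at 0.928. CSTB, with NAA10 at 0.865 and EMD at 0.838, and CST7, with KIAA0408 at 0.877, SYDE1 at 0.836 and ZFP82 at 0.835, had no gene as close.

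The proteases that cystatins bind were counted from a list of 12 genes, 11 papain-like cathepsins and legumain (LGMN), all of which were tested. In epididymis 6 were higher, against 15.1% of all genes, and 0 lower, against 6.56%, with a median of 0.95 against 0.25 for all genes. They were LGMN at 1.67 ± 0.19 (adjusted p = 1.57e-07), CTSK at 1.61 ± 0.26, CTSZ at 1.51 ± 0.23, CTSV at 1.37 ± 0.35, CTSS at 1.32 ± 0.32 and CTSF at 1.07 ± 0.19. In testis 3 were higher, CTSC at 1.82 ± 0.31, CTSF at 1.48 ± 0.19 and LGMN at 1.42 ± 0.19, which as 3 of 12 is no larger a share than the 34.6% of all genes, and 2 were lower, CTSS and CTSW, against 12.7%. LGMN was thus higher in both the gland with the most CST6, which inhibits it, and the gland with the least. In vesicular gland 1 was higher (CTSL), against 2.95%, and 5 were lower, against 30.1%. Prostate gland had 1 higher (CTSW), against 3.69%, and 3 lower, against 12.8%, and bulbourethral gland 1 higher (CTSS), against 8.45%, and 1 lower (CTSL), against 12%. These counts depend on the scaling: with size factors 3 stayed higher in epididymis (LGMN, CTSK and CTSZ), and in vesicular gland 3 were higher (CTSB, CTSL and CTSV) and 0 lower, while the 5 calls in testis were the same genes. The shares of all genes moved too. With size factors fewer were higher in epididymis, and in vesicular gland more were higher and fewer lower. Summed over the list, the median library had 1674 TPM in epididymis and 1396 in testis, against 897, 863 and 786 in the bulbourethral, vesicular and prostate glands. In prostate and bulbourethral gland, CST3 alone had a higher median than this sum.

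Other genes with a cystatin domain or fold were fewer. Of 8 listed, 7 were in the table and 4 passed the filter on low values, and 2 of these were higher in testis, CSTL1 and LXN, an inhibitor of carboxypeptidases, the latter by 2.06 ± 0.24 (adjusted p = 4.29e-08), where 34.6% of all genes were higher. KNG1, the kininogen, was higher in bulbourethral gland by 2.04 ± 0.16 (adjusted p = 3.07e-10), where 8.45% of all genes were. CSTL1 was the 1 gene called lower in each of the 3 accessory glands, against 30.1%, 12.8% and 12% of all genes in vesicular, prostate and bulbourethral gland. RARRES1 was not called in any gland.

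Between the breeds no cystatin was called. Differences are DSE minus BMI, fitted with limma in the 6 libraries of each gland. Groups of 3 libraries can separate without a breed difference. The share of all genes that did so was not counted, so lack of overlap is a description in all glands. In testis 0 of 7 genes were called, 1 had an unadjusted p below 0.05 and 0.302% of all genes were called. CSTB had the lowest adjusted p there, with 72.2, 65.4 and 66.5 TPM in BMI and 108, 210 and 106.9 in DSE, groups that did not overlap, and a difference of 0.97 ± 0.29 (adjusted p = 0.295). A single fit of all 30 libraries gave an adjusted p of 0.0138 for the same difference, under the fold threshold. Without DSE testis replicate 2 it was 0.66 (adjusted p = 0.101). CST3 did not overlap either, at 448, 442 and 483 TPM in BMI and 579, 1273 and 555 in DSE, with a difference of 0.70 ± 0.34 (adjusted p = 0.437), which was 0.31 without DSE testis replicate 2. CST8 differed by -0.25 ± 0.76 with that library and by 0.64 without it, and CST9L by 0.58 ± 0.35 and 0.20. No cell marker was called between the breeds in testis. The median difference was 0.57 over 5 Sertoli cell genes, 0.64 over 5 Leydig cell genes, -0.64 over 8 germ cell genes and 0.75 over the 12 proteases described above, against -0.05 for all genes. The Sertoli cell genes summed to 237 to 252 TPM in BMI and 305 to 669 in DSE, the Leydig cell genes to 18555 to 21750 and 23925 to 63471, and the proteases to 952 to 1111 and 1681 to 3386, each without overlap. The germ cell sums, 76447 to 95284 and 25576 to 116911, overlapped. Their part in these breed differences was not tested.

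In epididymis 0 of 7 genes were called and 0% of all genes, and no cystatin had an unadjusted p below 0.05. CST11 differed by 2.35 ± 4.28 and CST9L by 2.36 ± 2.21, both with an adjusted p of 0.9999, and the SE of each is about as large as the difference or larger. In vesicular gland 0 of 5 tested genes were called, against 0.0163% of all genes, and 1 had an unadjusted p below 0.05. CST3 had the lowest adjusted p, with 511, 714 and 365 TPM in BMI and 225, 382 and 240 in DSE and a difference of -0.89 ± 0.32 (adjusted p = 0.263). The median of all genes in this contrast was -0.31, and that of 9 leukocyte markers -0.55 with 0 called, their sum being 46.3 to 92.2 TPM in BMI and 22.9 to 61.9 in DSE, and their part in the value of CST3 was not tested.

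In prostate gland 0 of 5 were called, against 0.173%, and 2 had an unadjusted p below 0.05. CST6 had 406, 172 and 261 TPM in BMI and 535, 425 and 512 in DSE, without overlap, and differed by 0.89 ± 0.32 (adjusted p = 0.142). CST7 did not overlap either, at 0.54 ± 0.13 (adjusted p = 0.0791). Leukocyte markers, summed over the list, had 59.6 to 102 TPM in the BMI prostate gland libraries and 118 to 201 in the DSE libraries, also without overlap, with a median difference of 0.74 over 9 genes, against 0.27 for all genes, and 0 called. Among them were PTPRC, the common leukocyte antigen, at 2.65 to 3.31 TPM in BMI and 6.66 to 8.01 in DSE, and TYROBP, an adaptor of myeloid and NK cell receptors, at 27.5 to 42.8 and 60.5 to 102. Smooth muscle markers summed to 206 to 2096 TPM in BMI and 1631 to 3485 in DSE, with a median difference of 2.26 over 5 genes and 0 called. The part of these cells in the values of CST6 and CST7 was not tested. In bulbourethral gland 0 of 7 were called and 0% of all genes, and no cystatin had an unadjusted p below 0.05. CSTB had 160, 144 and 148 TPM in BMI and 162, 189 and 196 in DSE, a difference of 0.27 ± 0.13 (adjusted p = 0.883). Over all glands together 0 of 7 were called, against 0.384% of all genes, and 2 had an unadjusted p below 0.05, CSTB at 0.27 ± 0.11 (adjusted p = 0.215) and CST6 at 0.40 ± 0.18 (adjusted p = 0.268). The interaction of breed and gland was called for 0 of 7 genes and for 2.6% of all genes, with the lowest adjusted p, 0.153, for CSTB. Neither the protease list nor the other cystatin genes had a breed call in any gland.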

How the data were processed

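Samples were grouped by breed and gland from their titles. The authors trimmed the RNA-seq reads and quantified isoforms against an annotation that merged Ensembl with their Iso-seq isoforms, and the values were deposited as TPM. The submitters' processing notes name Salmon 1.9.0, STAR 2.7.10a, GSNAP 2018-07-04, Bowtie 1.3.1 and the build susScr11. TPM keeps no depth, so no counting interval is given for it. The labels state rRNA depletion and the methods poly-T beads. For Iso-seq the authors clustered, aligned and collapsed the reads and deposited counts of full-length reads per isoform and library, together with the percent of A after each isoform end and a predicted coding status.

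TPM was summed by gene, and genes with at least 1 TPM in at least 3 of 30 libraries were fitted with limma 3.58.1 (R 4.3.3) as log2(TPM + 1), with 10 breed and gland groups. All 7 cystatins passed. CST8 passed through the testis and CST11 through the epididymis, the glands where they are high, and CST9L through both glands. Breeds were compared in the 6 libraries of a gland, without genes listed at 0 in all 6. Alternatives were a pseudocount of 0.1 TPM, size factors, other filters, Ensembl transcripts alone, each breed alone, one fit for the breeds, a replicate block, isoforms with at least 2 reads and leaving out each library. After the data were seen, all full-length non-chimeric reads of a library, from the study's run summary, were added as another total for Iso-seq. When a library or breed was left out, the genes tested stayed the same.

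The cystatins and all gene lists were chosen with earlier results of these data known. Every gene that the name rule found is described, with the 3 genes nearest in Pearson r (1 of those of CSTB is not reported here), the cathepsin list and the other cystatin genes. Marker lists were germ cells, Sertoli cells, Leydig cells, epididymal epithelium, gland epithelium, leukocytes, smooth muscle, skeletal muscle and endothelium. Scripts were tested on simulated data. Sequences were read from the reference genome susScr11, whose introns in the deposited annotation began with GT and ended with AG in 93.0% to 94.1% on the chromosomes 2, 13 and 17. Python 3.11.15, numpy 2.4.6, pandas 2.3.3, scipy 1.17.1, Biopython 1.88 and matplotlib 3.10.9 were used. Small RNA data were not used here.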

Additional observations from a re-analysis of the deposited data

How the results depend on the processing

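Of the values of single cystatins under alternatives, 4423 kept their direction and side of the threshold, 47 gained a call, 30 lost one and 0 reversed. With size factors, members lower in testis became 3 (CST3 and CSTB added), higher in vesicular gland 2 (CST6 and CSTB), higher in prostate gland 2 (CST3 added) and higher in bulbourethral gland 0, and the members called between epididymis and vesicular gland became 2, between vesicular and prostate gland 1, between vesicular and bulbourethral gland 3, between testis and epididymis 5 (from 6) and between testis and prostate gland 6 (from 5). With a pseudocount of 0.1 TPM, 1 was higher in vesicular gland (CST6). BMI alone gave 3 lower in testis and 2 lower in epididymis (CST8 and CST9L). DSE alone gave 2 higher (CST3 added) and 1 lower (CST8 lost) in prostate gland and 0 higher in bulbourethral gland. When a library was left out, members lower in testis ranged from 1 to 3 (3 without DSE testis replicate 2), lower in epididymis from 0 to 2 (2 without DSE replicate 1), higher in prostate gland from 1 to 2 (2 without BMI or DSE replicate 2) and higher in bulbourethral gland from 0 to 1, since CST3 moved between 0.87 and 1.11 and lost its call without DSE testis 1 or 3, BMI epididymis 3, BMI vesicular gland 3, DSE vesicular gland 1, BMI or DSE prostate gland 2, BMI bulbourethral gland 2 or DSE bulbourethral gland 3. The counts of all genes called moved with several of these settings too, as given below. The causes were not tested. With all full-length reads of a library as the total, a choice made after seeing the data, CST11 moved from 67.0 to 28.6 per 100000 in DSE and from 6.76 to 4.53 in BMI epididymis, and CST3 from 24.2 to 10.3 in DSE epididymis.

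The replicate block changed no cystatin call. The labels do not say which libraries share a boar. Deviations of same-numbered libraries correlated between -0.555 and 0.374 for the breeds of a gland, with 4 of 15 above 0.1, and between -0.298 and 0.390 for the glands of a breed, with 21 of 60 above 0.1. The numbers were therefore not used as pairs, and boars shared between glands remain possible.

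Of all genes, 6855 were higher in testis and 3759 with Ensembl transcripts alone. In vesicular gland 5950 were lower and 584 higher, against 2369 and 1441 with size factors and 9499 and 896 with a pseudocount of 0.1. In epididymis 2989 were higher, and 1714 with size factors. Between the breeds, 59 genes were called in testis, from 0 to 238 without single libraries (238 without DSE testis replicate 2) and 0 with the replicate block, and 32 in prostate gland, from 0 to 358 (358 without BMI prostate gland replicate 2) and 0 with the block. Over all glands 76 became 303 with a pseudocount of 0.1, and the interaction's 514 became 1119 without DSE testis replicate 3.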
